A study of Mus musculus with 12 samples.

Results

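mmu-miR-320, mmu-miR-122 and mmu-miR-192 are 3 mouse microRNAs (miRNAs) that earlier work described as regulators that target NOD2. They were followed here in murine pulmonary endothelial cells, among 375 miRNA assays on each array. Each was found by its name on the array, by a rule that uses no measured value. Earlier results of these data were nevertheless known when the members were chosen. The prefix mmu for mouse is left out from here on. Primary endothelial cells were isolated from lungs of male wild type C57BL/6N mice aged 6 to 10 weeks, with 3 mice pooled for each isolation, by magnetic beads against CD144 and then CD31. The cells were held for 2 h in medium with little serum. In the TD group they were then exposed to Tri-DAP, a NOD1 ligand, and in the MDP group to MDP, a NOD2 ligand, each at 10 μg/mL for 6 h. The control group received neither ligand. Every group holds 4 arrays from cell isolations of pooled animals, and an array is named below by the number in its label, which is 4, 7, 10 and 13 for control, 5, 8, 11 and 14 for TD, and 6, 9, 12 and 15 for MDP.

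miRNAs are short RNAs that pair with target mRNAs, mainly through bases 2 to 8 from their 5′ end, the seed, and lower the stability or translation of those targets. NOD1 and NOD2 are receptors in the cytosol that sense fragments of bacterial cell walls and activate NF-κB. A miRNA that targets NOD2 would lower the receptor itself, so that the comparison asks how much of these 3 miRNAs endothelial cells hold and whether a NOD ligand changes them. As background, miR-122 is the dominant miRNA of hepatocytes, miR-192 is abundant in gut, liver and kidney, and miR-320 is made in most tissues without the Drosha step that trims most miRNA precursors.

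Of the 3, the RefSeq table (GRCm38.p6) used here holds the mature sequence of miR-192, whose assay target is taken as the 5p arm. It is shown beside miR-215, its relative, because both carry the same seed, and beside miR-194, which is encoded next to both. Seeds are in capitals.
miR-192-5p: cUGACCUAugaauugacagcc
miR-215-5p: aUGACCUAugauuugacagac
miR-194-5p: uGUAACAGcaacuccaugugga
miR-192-5p and miR-215-5p are identical at 18 of 21 positions, and miR-215-5p is the only other mature mouse miRNA in the table with the seed of miR-192-5p. miR-192-5p lies at chr19:6264857-6264877 on the plus strand, and its gene Mir192 is separated from Mir194-2 by 115 bases. miR-215-5p lies at chr1:185313610-185313630 on the plus strand, in a gene 195 bases from Mir194-1, which sits inside Iars2. The gene of miR-320, Mir320, lies at chr14:70443510-70443591 (GRCm38.p6), 38 bases from Polr3d, which encodes a subunit of RNA polymerase III.

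The arrays were real-time PCR cards, and the measured value is the Ct, the cycle at which a well crosses the detection threshold. A lower Ct means more target, 1 cycle stands for about a 2-fold difference, and a Ct of 40 marks a well that never crossed. Levels are given on the log2 scale relative to U6, a small nuclear RNA in 4 wells of each array. Between 231 and 254 miRNAs were measured on an array, and the mean Ct of U6 ran from 18.3 on TD array 14 to 21.6 on TD array 8. The 4 U6 wells of an array differed among themselves with an SD of 0.11 to 2.05 cycles. The endothelial miRNAs miR-126-3p and miR-126-5p gave a Ct on every array, which averaged between 19.4 and 21.5 over the pair, and miR-126-3p was the earliest of the 174 miRNAs without an undetermined well. Markers of other cells were measured too. The 4 mural and fibroblast miRNAs miR-143, miR-145, miR-199a-3p and miR-214 had a mean Ct between 23.9 and 30.7. The leukocyte list was measured on at least 1 array for 4 of 4 assays, with a mean Ct between 29.5 and 31.2 over the pair measured on all arrays. All 8 epithelial assays were measured on at least 1 array, with a mean Ct between 30.1 and 34.8 over the 2 found on every array; on arrays 7, 8 and 9 it was 33.7 to 34.8, against 30.1 to 33.3 on the other 9. The red blood cell miRNAs miR-451 and miR-486 were each measured on some arrays, and neither on all of them. The arrays numbered 7, 8 and 9, 1 of each group, stood apart from the other 9 in the mural and fibroblast list, with a mean Ct of 30.4 to 30.7 against 23.9 to 28.8. The values of miR-320 and miR-192 are given below with and without them. These 3 arrays were picked out after the values of miR-320 had been seen, so that what is said of miR-320 on them is a description only. Arrays 13, 14 and 15 stood apart in the opposite direction, with 4 of 4 mural and fibroblast miRNAs earlier than on every other array, as for miR-145 at 23.1 to 23.5 against 27.0 to 33.1. The endothelial miR-126-3p and miR-126-5p were both later on arrays 13, 14 and 15 than on every other array. For miR-126-3p the Ct was 20.3 to 20.6 there against 18.6 to 20.2. No fit without arrays 13, 14 and 15 together was run.

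The members differed in abundance. miR-320 and miR-192 were measured on 12 of 12 arrays, while miR-122 was undetermined on 12 of 12. miR-122 was thus 1 of 55 miRNA assays, or 14.7% of 375, that crossed the threshold on no array. A Ct of 40 sets only an upper bound on its level, which the array cannot tell from 0. By mean Ct over the arrays, miR-320 came 89th and miR-192 142nd among 320 measured miRNAs, both earlier than the median miRNA at 31.0. On control arrays alone they came 86th and 131st of 291. These ranks count miRNAs read in few wells, and the 5 ahead of miR-126-3p were measured on 1 or 2 arrays. Among the 174 miRNAs measured on 12 of 12 arrays, miR-320 came 76th and miR-192 117th, with the median miRNA at 29.0, between them.

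**Figure D1:**
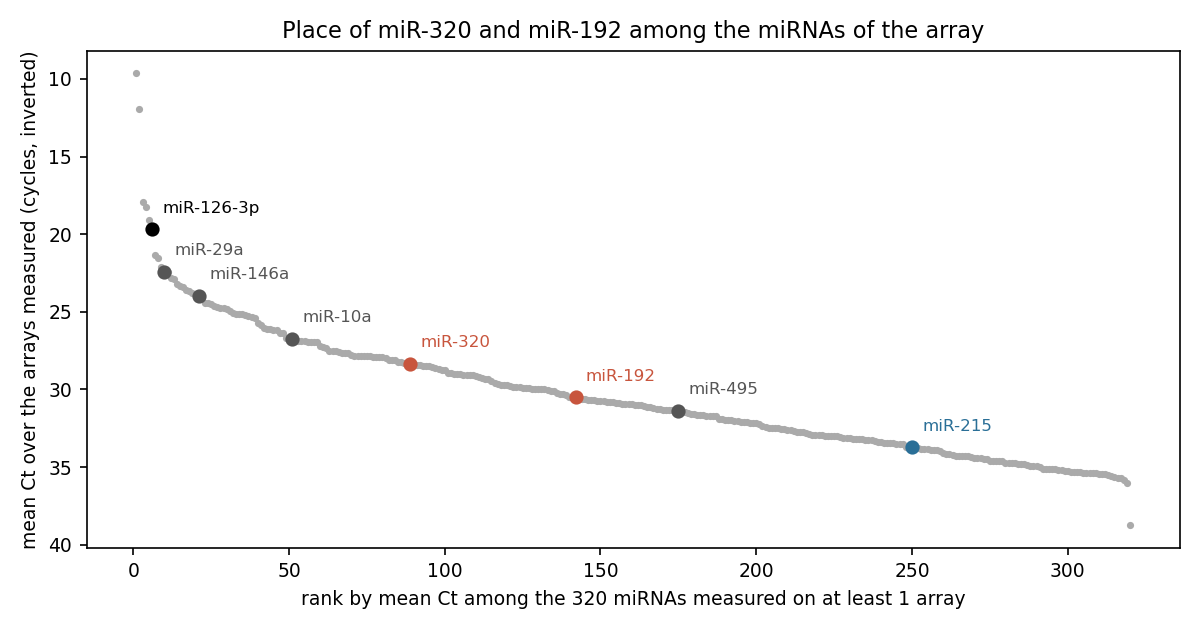
Mean Ct in cycles (inverted axis, so that abundant miRNAs are at the top) of the 320 miRNAs that at least 1 array measured, against their rank. miR-320 at 28.4 (rank 89) and miR-192 at 30.5 (rank 142), both in red, lie well after the endothelial miR-126-3p at 19.7 (black). miR-122 has no point since it was never measured, and the 5 points before miR-126-3p are miRNAs measured on 1 or 2 arrays.

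miR-320 had Ct values of 28.2, 29.8, 27.8 and 27.8 on control arrays 4, 7, 10 and 13. After TD they were 27.8, 30.9, 27.0 and 28.0 on arrays 5, 8, 11 and 14. After MDP they were 27.4, 30.4, 27.9 and 27.6 on arrays 6, 9, 12 and 15. In each group 1 array was late, array 7, 8 or 9, and the remaining 9 arrays lay between 27.0 and 28.2 whatever the treatment. The group means were 28.4 ± 0.93, 28.4 ± 1.69 and 28.3 ± 1.40 (SD, n = 4 each).

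miR-192 had Ct values of 30.0, 30.7, 30.6 and 29.9 on the control arrays. After TD they were 30.7, 31.5, 30.2 and 30.5, and after MDP 29.7, 31.9, 30.5 and 30.1. These values lay closer together than those of miR-320, and the latest were again on arrays 8 and 9. The means were 30.3 ± 0.40 for control, 30.7 ± 0.53 for TD and 30.5 ± 0.98 for MDP (SD, n = 4 each). On each of the 12 arrays miR-192 was later than miR-320, by 2.15 ± 0.79 cycles (SD, n = 12), with a range from 0.62 to 3.21. Since assays differ in efficiency, this is an order of Ct values and not a ratio of molecules.

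**Figure D2:**
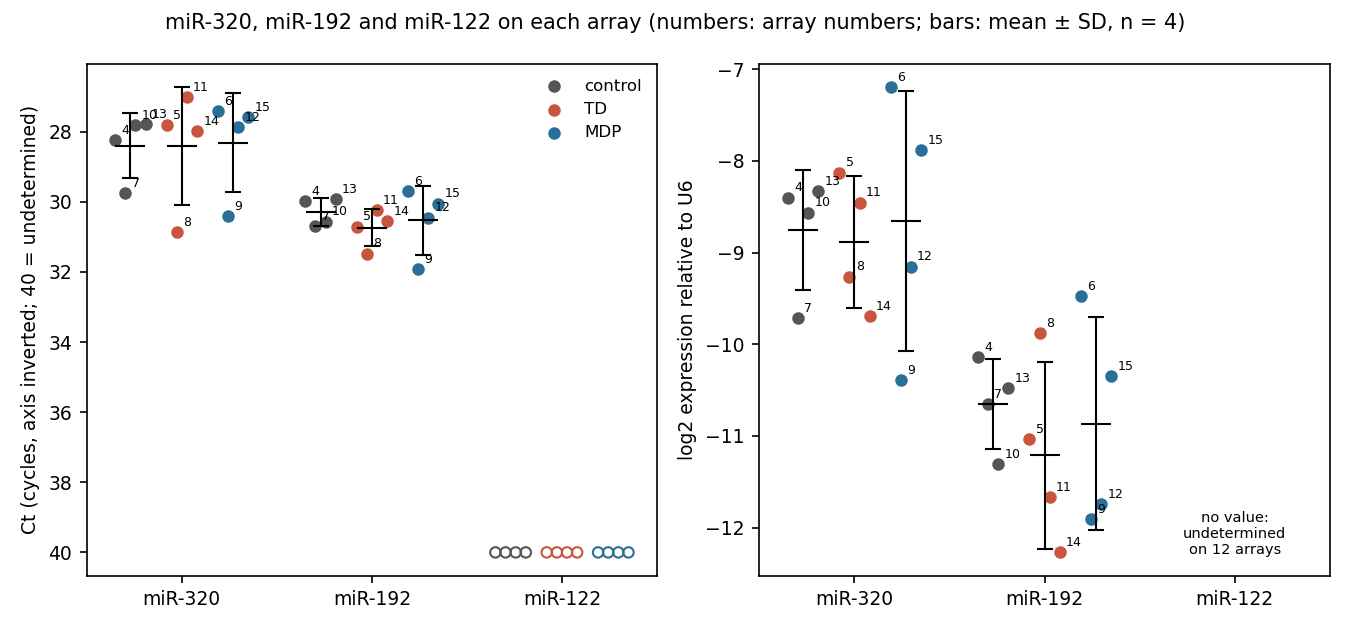
Ct in cycles (left, inverted axis, open circles at 40 for undetermined wells) and log2 level relative to U6 (right) of the 3 miRNAs on each array, with the mean and SD of 4 arrays as bars and the array number beside each point. The 3 groups overlap for miR-320 and for miR-192 on both scales, and miR-122 sits at 40 throughout.

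The members were set beside 8 other miRNAs that the study or earlier work links to NOD1 or NOD2 and that the array carries, namely miR-10a, miR-125a-5p, miR-146a, miR-495, miR-671-3p, miR-29a, miR-29b and miR-29c. By mean Ct, miR-29a was earliest at 22.4, followed by miR-29c at 23.4, miR-146a at 24.0, miR-125a-5p at 25.2 and miR-10a at 26.8. miR-320 at 28.4 stood sixth, before miR-29b at 29.0, and miR-192 at 30.5 stood before miR-671-3p at 31.3 and miR-495 at 31.4. miR-320 was later than miR-10a on 12 of 12 arrays, by 1.62 ± 0.92 cycles. It could not be separated from miR-29b, which was later on 9 of 12 arrays by 0.65 ± 1.62 cycles. miR-192 was later than miR-29b on 10 of 12 arrays, and miR-671-3p was later than miR-192 on 11 of 12, by 0.73 ± 0.66 cycles (SD, n = 12). The sequences of 3 of these 8 are shown because they share 1 seed and yet differ in Ct.
miR-29a-3p: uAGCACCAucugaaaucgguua
miR-29b-3p: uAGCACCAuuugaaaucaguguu
miR-29c-3p: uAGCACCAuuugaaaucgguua
The 11 sequences of miR-192, its relatives and the 8 linked miRNAs hold 8 distinct seeds, and none of the other linked miRNAs carries the seed of miR-192. Where an older assay name gives no arm, the 5p or 3p arm of the sequence was assumed here.

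Relative to U6, miR-320 had log2 levels of -8.40, -9.72, -8.56 and -8.33 on control arrays 4, 7, 10 and 13. The levels after TD were -8.13, -9.26, -8.45 and -9.70. Those after MDP were -7.19, -10.39, -9.15 and -7.88. The means were -8.75 ± 0.65, -8.88 ± 0.72 and -8.65 ± 1.41 (SD, n = 4 each), and the range of each group overlapped with both others. The Ct of miR-320 on TD array 14, at 28.0, was near that of other arrays, and its low value relative to U6 there coincided with the earliest U6 Ct of the series.

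TD and MDP were each compared with control to see whether a NOD1 or a NOD2 ligand changed the level. For miR-320 the difference between TD and control was -0.13 on the log2 scale (SE 0.72, 95% interval -1.70 to 1.43), with a limma p of 0.86, adjusted 0.998, and an exact permutation p of 0.89. After MDP it was 0.10 (SE 0.72, interval -1.47 to 1.66), with a limma p of 0.89 and an exact permutation p of 0.97. MDP and TD differed by 0.23 (SE 0.73, interval -1.34 to 1.80, limma p 0.76). These intervals include a level up to 2.70-fold higher or 3.24-fold lower after TD, and up to 3.17-fold higher or 2.76-fold lower after MDP. Relative to U6, a change of 2-fold in either direction thus lay within the error of this fit.

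miR-192 had log2 levels relative to U6 of -10.14, -10.66, -11.31 and -10.48 on the control arrays. The levels after TD were -11.03, -9.88, -11.67 and -12.27, and those after MDP -9.48, -11.91, -11.74 and -10.35. The ranges overlapped, with the highest TD value above every control value and 2 of 4 TD values below all of them. The highest was on TD array 8, which had the latest U6 Ct of the series, 21.6. By raw Ct, miR-192 was later there, at 31.5, than on every control array. The lowest was on TD array 14, which had the earliest U6 Ct, 18.3, while its miR-192 Ct of 30.5 lay within the control range. The means relative to U6 were -10.65 ± 0.49, -11.21 ± 1.02 and -10.87 ± 1.16 (SD, n = 4 each).

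For miR-192 the difference between TD and control was -0.57 on the log2 scale (SE 0.70, 95% interval -2.08 to 0.95), with a limma p of 0.43, adjusted 0.998, and an exact permutation p of 0.34. After MDP it was -0.22 (SE 0.70, interval -1.73 to 1.29), with a limma p of 0.75 and an exact permutation p of 0.74. MDP and TD differed by 0.34 (SE 0.70, interval -1.18 to 1.86, limma p 0.63). The intervals include a level up to 1.93-fold higher or 4.23-fold lower after TD, and up to 2.44-fold higher or 3.33-fold lower after MDP. Each difference of the members measured, miR-320 and miR-192, was thus smaller than its SE. The p-values set a difference against the residual spread between these 12 arrays, which the fit takes as independent.

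miR-122 could not be tested, since no well gave a level. If its wells are set at 40, its values relative to U6 run from -21.72 to -18.40 and follow U6 alone. The group differences so made, -0.11 for TD against control and 0.02 for MDP against control, equal those of the U6 Ct and carry nothing about miR-122.

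At an unadjusted limma p under 0.05, 0 of the 2 measured members passed in any of the 3 comparisons. Over all miRNAs tested, 4 of 237 passed for TD against control (1.69%), 3 of 244 for MDP against control (1.23%) and 7 of 241 for MDP against TD (2.9%). After Benjamini-Hochberg adjustment of limma's p, 0 passed in each comparison, and the methods' t-test, which they name for data in general beside limma for the arrays, called 4, 1 and 4 in these comparisons without adjustment and 0 with it. Groups without overlap were found for 3.8%, 2.87% and 3.73% of the miRNAs tested, and for 0 of the 2 members. The median difference over all miRNAs was -0.24 for TD against control, -0.02 for MDP against control and 0.18 for MDP against TD, so that the TD value of miR-320 lay closer to 0 than the median miRNA, while that of miR-192 lay below it. The SEs of the members, 0.70 to 0.73, were smaller than the median SE of 0.81 to 0.82.

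The 8 other NOD-linked miRNAs gave values of the same kind, with 0 of 8 past the unadjusted threshold in each comparison. After TD the mean was lower for 7 of 8, with a median difference of -0.29 and a range from -0.85 for miR-495 to 0.12 for miR-29b. Over all 237 miRNAs tested, 75.1% had a lower mean after TD. After MDP the mean was also lower for 7 of 8, with a median of -0.08, beside 54.1% of all miRNAs. Against TD the MDP mean was lower for 1 of 8, beside 25.3% of all miRNAs, and the median difference was 0.18. miR-146a, a miRNA known to be induced by NF-κB and to restrain signaling to it, differed from control by -0.22 after TD (SE 0.60, limma p 0.72) and by -0.07 after MDP (SE 0.60, limma p 0.92). Both stimulations were compared with the same 4 control arrays.

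**Figure D3:**
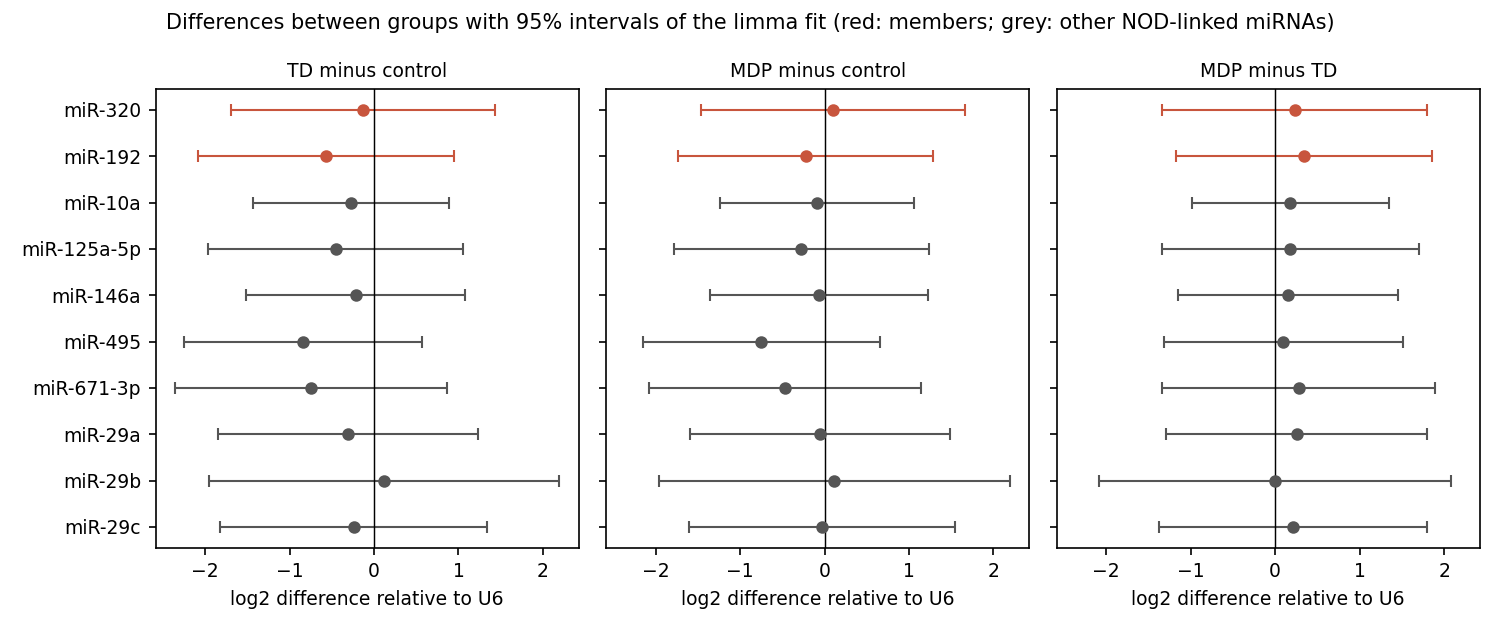
Log2 differences relative to U6 with 95% intervals of the limma fit for miR-320 and miR-192 (red) and the 8 other NOD-linked miRNAs (grey), in 3 panels for TD minus control, MDP minus control and MDP minus TD. Every interval includes 0, and that of miR-192 after TD reaches from -2.08 to 0.95.

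The relatives of miR-192 were read beside it. miR-194, which is encoded next to it, was measured on 12 of 12 arrays at a mean Ct of 31.0 and differed from control by 0.02 after TD (SE 0.91) and by -0.01 after MDP (SE 0.91). Relative to the mean miRNA, explained below, it was set against miR-192 across arrays, with a Pearson r of -0.10 over 12 arrays and of 0.45 over the 9 without arrays 7, 8 and 9, and the r relative to U6, where both share the same U6 value, was 0.61. miR-215, with the seed of miR-192, was late, at a mean Ct of 33.7, and was measured on 3 of 4 control, 1 of 4 TD and 3 of 4 MDP arrays. Its Ct values were 34.7, 33.0 and 33.6 on control arrays 4, 7 and 13, 36.7 on TD array 14, and 33.9, 33.4 and 30.8 on MDP arrays 6, 9 and 15. The control and MDP arrays overlapped, with a difference of 1.24 (SE 0.95, limma p 0.23), and TD was not tested because 1 array held a value.

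Because U6 itself moved by several cycles, the members were also set against the mean Ct of the 174 miRNAs without an undetermined well, called the mean miRNA here. On this log2 scale miR-192 lay at -1.63 ± 0.27 in control, -1.96 ± 0.19 after TD and -1.82 ± 0.63 after MDP (SD, n = 4 each). TD differed from control by -0.33 (SE 0.34, interval -1.08 to 0.41, limma p 0.35) and MDP by -0.19 (SE 0.34, interval -0.94 to 0.56, limma p 0.59). The interval for miR-192 is narrower than that relative to U6 and still includes 0. Consecutive label numbers were also taken as 4 sets of a control, a TD and an MDP array, which the labels do not state. On the scale of the mean miRNA, TD was then below control for miR-192 in 4 of 4 sets, by -0.64 to -0.06. Relative to U6, TD was above control in 1 of 4 sets, with differences from -1.79 to 0.78. How many of all miRNAs kept 1 sign over the sets was not counted. With the mean miRNA as reference and the sets as a block, the interval for miR-192 was -0.96 to 0.29 (limma p 0.25). miR-320 lay at 0.26 ± 0.69, 0.36 ± 1.09 and 0.40 ± 1.01, with a difference of 0.10 after TD (SE 0.64, interval -1.31 to 1.51), which has the opposite sign to the value relative to U6. With the sets as a block as well, the intervals for miR-320 were -0.46 to 0.67 after TD and -0.44 to 0.70 after MDP. This fit was added after the data had been seen, and arrays 7, 8 and 9, late for miR-320, form a set in it. Its narrower intervals therefore cannot exclude a 2-fold change. The SD over 12 arrays was 0.40 for miR-192, 141st from the largest among 174, and 0.86 for miR-320, 62nd from the largest, beside a median of 0.66.

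The spread of miR-320 lay in the arrays numbered 7, 8 and 9. Relative to the mean miRNA its level was -0.74, -1.17 and -1.07 on these, against 0.34 to 1.26 on the other 9, and 1 array of each group was among them. miR-192 did not split in this way, with -1.68, -1.78 and -2.59 on arrays 7, 8 and 9 within or below a range of -2.24 to -1.06 on the others. By raw Ct, miR-192 came close to such a split, at 30.698 to 31.918 on arrays 7, 8 and 9 against 29.689 to 30.711. By raw Ct, 33 of 174 miRNAs (19.0%), miR-320 among them, were later on all of arrays 7, 8 and 9 than on every other array, and the mean Ct of the 174 was 29.0 to 29.7 there against 28.2 to 28.8. Relative to the mean miRNA this held for 16 miRNAs (9.20%), again with miR-320, and the same count for the other runs of 3 consecutive numbers was 6, 7 and 22. Beside miR-320, 4 of 4 mural and fibroblast miRNAs were lower on these 3 arrays than on every other array, while the endothelial pair had a mean Ct of 19.8 to 21.0 there and 19.4 to 21.5 elsewhere. With these 4, miR-320 had a Pearson r of 0.49 to 0.53 over 12 arrays, but of -0.63 to -0.49 over the other 9. On arrays 13, 14 and 15, where the mural and fibroblast miRNAs were highest and the endothelial pair lowest, miR-320 lay at 0.45, 0.34 and 0.79. The part of the other cells' miRNAs in the level of miR-320 was not tested.

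Without these 3 arrays, miR-320 differed from control by -0.33 after TD (SE 0.67, limma p 0.64) and by 0.36 after MDP (SE 0.67, limma p 0.61). miR-192 differed by -1.02 after TD (SE 0.71, limma p 0.18) and by 0.12 after MDP (SE 0.71, limma p 0.87), and its MDP value changed sign. MDP and TD then differed by 1.13 for miR-192 (SE 0.71, interval -0.46 to 2.73, limma p 0.14). With 3 arrays a group, neither member passed the threshold in any comparison.

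**Figure D4:**
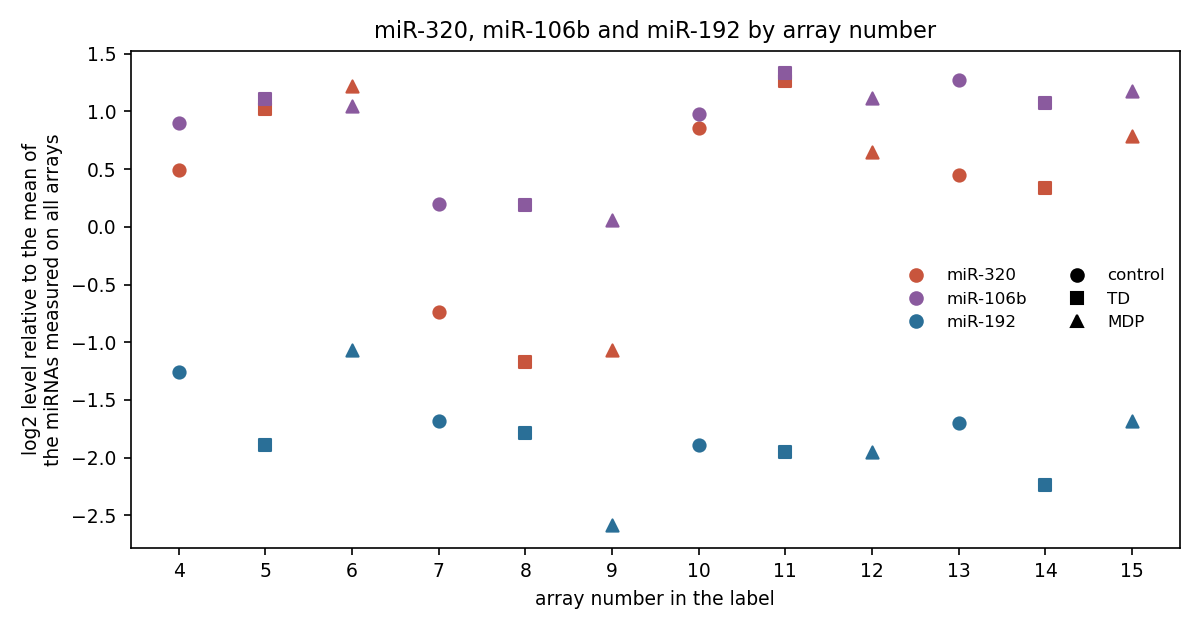
Log2 level relative to the mean of the 174 miRNAs without an undetermined well, against the array number in the label, for miR-320 (red), miR-106b (purple) and miR-192 (blue), with the group as the shape of the point. miR-320 and miR-106b are low on arrays 7, 8 and 9, 1 of each group, while miR-192 is not set apart on arrays 7 and 8.

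The miRNAs whose pattern over the arrays was most like that of each member were taken by Pearson r on the scale relative to the mean miRNA, among 206 with at least 10 arrays in common. For miR-320 these were miR-106b (r = 0.93), miR-106a (0.88) and miR-18a (0.86), all over 12 arrays. Without arrays 7, 8 and 9 the same r values were 0.25, 0.45 and -0.25 over 9 arrays, so that the likeness rests on those 3. The sequences of the 3 are shown because they belong to families known for promoting the cell cycle, and miR-106b-5p and miR-106a-5p share a seed.
miR-106b-5p: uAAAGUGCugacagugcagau
miR-106a-5p: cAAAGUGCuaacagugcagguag
miR-18a-5p: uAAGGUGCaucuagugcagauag
For miR-192 the most alike were the rat assays rno-miR-673 (r = 0.88 over 12 arrays) and rno-miR-1 (0.76 over 11) and the mouse assay miR-423-5p (0.61 over 12). Without arrays 7, 8 and 9 these were 0.84, 0.77 and 0.67. The rat assays were late, with a mean Ct of 35.1 for rno-miR-673, past the alternative limit of 35, and 32.7 for rno-miR-1. miR-320 and miR-192 themselves had an r of 0.39 over 12 arrays. The r values are descriptions over arrays that share their reference and may share isolations.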

How the data were processed

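RNA from 12 samples was measured on TaqMan low-density arrays (rodent set A, 40 cycles). The authors deposited Ct values, which are raw cycles and a unit of their own with 40 for undetermined wells, and normalized values on a log2 scale, Ct minus the mean Ct of 4 U6 wells (checked on 384 wells, largest difference 5.33e-15). A deposited table of the authors' own fold changes was not used, nor were 12 unnamed columns of the Ct table. Groups come from the labels, which give no pairing and do not say which arrays share an isolation. The paper describes 4 independent cell isolations for the arrays, also without assigning arrays to them. The main fit treats the 12 arrays as independent, and the fits with sets of consecutive numbers rest on a guessed pairing.

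The sign of the normalized values was turned here, and wells at 40 were set missing. All 12 arrays entered 1 least-squares fit per miRNA with limma 3.58.1 (empirical Bayes variances) in R 4.3.3, for miRNAs with at least 2 measured values in both groups. The threshold for a call was an unadjusted p of 0.05, with Benjamini-Hochberg adjustment over all miRNAs tested. Two-sided exact permutation tests of 4 against 4 arrays cannot give a p below 0.0286. The fit was tested on simulated data.

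The members and lists were chosen with earlier results of these data known. Named were the members, their relatives, a list of NOD-linked miRNAs, cell markers, reference RNAs and the 3 miRNAs most alike to each measured member. Alternatives covered the reference RNA, undetermined wells, a Ct limit of 35, filters, other tests, sets of consecutive numbers and leaving out arrays. Each array is a single PCR card, and the number of arrays, the reference RNA and the use of sets bear on the precision.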

Additional observations from a re-analysis of the deposited data

Results flagged for a closer look

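Of 18 groups of 4 arrays examined, 2 held 1 array far from the other 3, and both concern miR-320. About 0.9 would by chance, but Ct and the level relative to U6 come from the same wells. The groups are therefore not independent, and 2 beside 0.9 is no test. On MDP array 9 its Ct was 30.401, the highest of its group, beside 27.4 to 27.9 on the other 3 MDP arrays. On control array 7 its log2 level relative to U6 was -9.7175, the lowest of its group, beside -8.56 to -8.33 on the other 3 control arrays. Both arrays are among those numbered 7, 8 and 9, which were picked out after the values of miR-320 had been seen.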

How the results depend on the processing

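None of the 6 differences of miR-320 and miR-192 passed the threshold under any alternative run, and miR-122, with no measured level, gave values only with undetermined wells at 40, where they follow U6. The sign of several differences did not hold. miR-320 after TD was 0.10 with the mean miRNA as reference, and 0.10 (interval -0.46 to 0.67) when consecutive label numbers were also taken as sets, a grouping the labels do not state and an alternative added after seeing the data. miR-192 after MDP was 0.12 without arrays 7, 8 and 9, also added later. Leaving out 1 array in turn gave -0.45 to 0.14 (TD) and -0.39 to 0.68 (MDP) for miR-320, -1.01 to -0.21 and -0.69 to 0.12 for miR-192, and for MDP against TD -0.26 to 0.81 and -0.12 to 0.79. The labels give every array a number of its own and state no pairing; with consecutive numbers as sets (a block), relative to U6, the 6 differences kept their values, with an interval of -1.43 to 1.16 for miR-320 after TD.

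Counts of miRNAs called moved more. For TD against control (4) they were 8 with undetermined wells at 40, 7 without normalization, 9 with sets, 13 with sets and the mean miRNA, 12 without arrays 7, 8 and 9, and 1 to 12 leaving out 1 array (1 without TD 5, 7 without control 7, 12 without TD 8). For MDP against control (3) they were 5 with U6 and snoRNA202, 5 with the mean miRNA, 5 with 2 groups only, 6 with sets, 12 with sets and the mean miRNA, 5 without arrays 7, 8 and 9, 1 by the methods' t-test, 0 among miRNAs with no undetermined well in either group, and 1 to 7 leaving out 1 array. For MDP against TD (7) they were 4 with a Ct limit of 35, 4 by the methods' t-test, 0 among miRNAs with no undetermined well in either group, 12 with sets and the mean miRNA, 14 without arrays 7, 8 and 9, and 2 to 17 leaving out 1 array. The cause was not tested. The width of the intervals depends on the reference and on the sets: for miR-192 after TD the SE was 0.70 relative to U6, 0.34 relative to the mean miRNA and 0.27 with sets as well.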
